A study of Mus musculus with 2 samples.

Results

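Secreted phospholipases A2 are small, disulfide-rich enzymes that leave the cell, need calcium, and cut the fatty acid at the sn-2 position of phospholipids in membranes, lipoproteins or vesicles. The products are a free fatty acid and a lysophospholipid, which can feed eicosanoid synthesis or act through receptors of their own. Skin is known for a division of labour among these enzymes: the IIF form is made by the upper layers of the epidermis, the IIE form by hair follicles, and the IID form by dendritic cells and macrophages. The cytosolic enzyme of group IVE, encoded by Pla2g4e, belongs to another family, works inside the cell and makes precursors of N-acylethanolamines.

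The members were the probes outside the controls whose gene name in the scanner files was Pla2g1b, Pla2g2c, Pla2g2d, Pla2g2e, Pla2g2f, Pla2g3, Pla2g5, Pla2g10, Pla2g12a or Pla2g12b. All 10 genes were on the array, with 15 probes, among 24288 named genes. Of these 15 probes, 14 were marked well above background on both arrays, so that each of the 10 genes had at least 1 measured probe, among 19397 genes with such a probe. Members Pla2g1b, Pla2g2d, Pla2g2e, Pla2g3 and Pla2g5 each had a pair of probes, and the other 5 had 1.

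RNA came from the skin of C57BL/6N mice on postnatal day 0, either Pla2g4e+/+ (wild type) or Pla2g4e-/- (knockout). Each genotype was represented by 1 pool, made from the RNA of 5 newborns and read on 1 Agilent 1-colour array. With 1 array per genotype no test was possible and no p-value is given, and the number of arrays limits the precision. The error printed beside a value is the scanner software's own error for a spot, which leaves out the animals.

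The readings are processed intensities, in array units, from which the software had subtracted background. Differences are given as log2 of the intensity scaled by each array's 75th percentile, knockout minus wild type. The median spot read 249 in wild-type skin and 241 in knockout skin, and 78.0% and 80.8% of probes were well above background. The main Pla2g4e probe, A_52_P203948, read 662 and 320 (a difference of -0.96 log2, scanner error 0.20). The sources used here do not say which part of the gene was deleted, so this probe does not check the labels. Markers of keratinocytes were bright in both pools, with 0 of 6 at least 1.5-fold apart. The pools were not matched for sex: the Y-linked Ddx3y read 2893 in wild-type skin and 2.36 in knockout skin, where it was not well above background. The female-specific Xist was well above background in both pools. Its probes read 796 and 215 in wild-type skin and 2889 and 861 in knockout skin, so the wild-type pool was of mixed sex. Sex and genotype therefore cannot be told apart in any difference below.

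Pla2g2e stood lower in knockout skin at both of its probes, and Pla2g10 stood lower at its single dim probe. The other 8 members were less than 1.5-fold apart at the probe that represents each gene. Past 1.5-fold, 2 of the 10 members lay on the lower side, against 4.50% of all 19397 genes, and 0 on the higher side, against 6.74%. Past 2-fold, 1 member, Pla2g2e, lay on the lower side, against 1.44% of all genes, and 0 on the higher side, against 2.23%. The median of the members was -0.02 log2, beside 0.01 for all measured genes, and 5 members lay above 0 and 5 below. At these probes, 1 per gene, the members ranged from -1.30 for Pla2g2e to 0.55 for Pla2g2d.

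**Figure D1:**
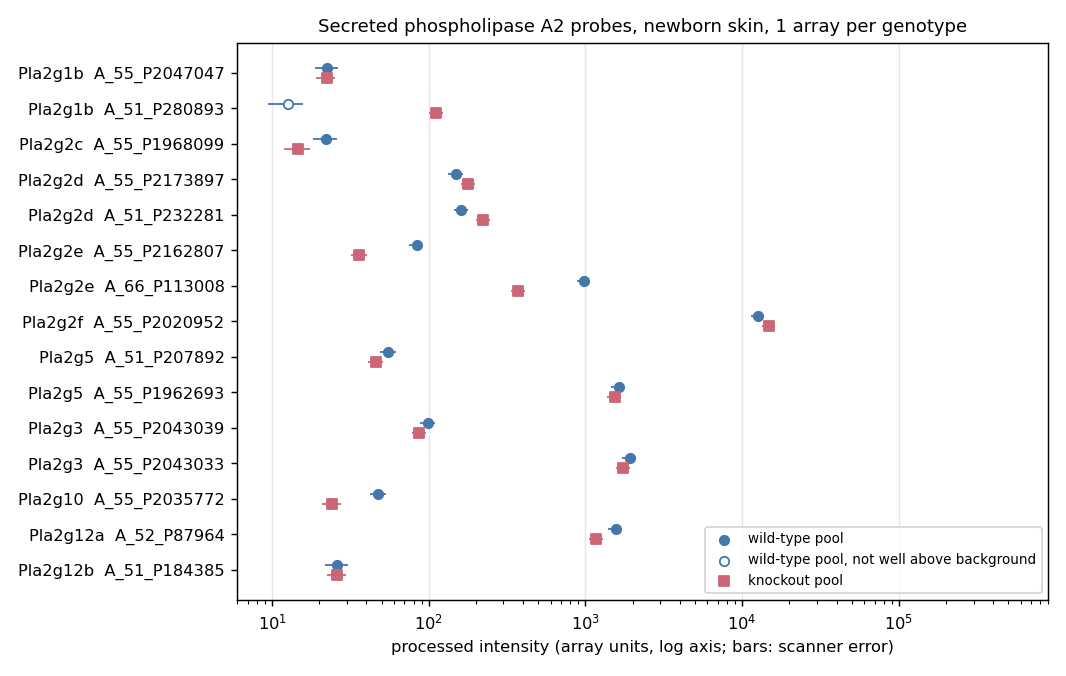
Processed intensity of each of the 15 secreted phospholipase A2 probes on a log axis, in wild-type skin (circles) and knockout skin (squares), with bars for the scanner error. Both Pla2g2e probes and the Pla2g10 probe read lower in knockout skin, and a Pla2g1b probe read 12.6 in wild-type skin (open circle, not well above background) and 112 in knockout skin.

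Group IIE had the largest difference among the member probes measured on both arrays. The gene Pla2g2e encodes an enzyme known from hair follicles and from fat tissue. Its probes lie 291 bases apart in the same transcript, NM_012044, at mm9 chr4:138438368-138438427 and chr4:138438659-138438718. The probe nearer the 5′ end, A_55_P2162807, is shown because its reading gives a second measure of the same RNA; it is all in lower case, 5′ to 3′, as the array files give it.

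A_55_P2162807: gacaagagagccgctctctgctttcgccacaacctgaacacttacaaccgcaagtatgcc

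This probe read 83.7 (scanner error 8.87) in wild-type skin and 36.1 (4.19) in knockout skin. The other probe, A_66_P113008, read 976 (97.7) and 372 (37.3). Both spots were therefore dimmer in knockout skin by more than their scanner error. The scaled differences were -1.12 log2 (error 0.23) and -1.30 log2 (error 0.20), so that 45.9% and 40.6% of the wild-type level was left. In the RNA of a whole tissue, fewer cells of a type and less RNA per cell cannot be told apart.

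Hair follicle markers were lower in the same pool. Of 9 such markers, all measured, 7 were lower by 1.5-fold or more and 0 higher, with a median of -0.90 log2. The 7 were the hair keratins Krt31, Krt33a, Krt34 and Krt35, the inner root sheath keratin Krt27, and the transcription factors Hoxc13 and Msx2. The lowest was Krt34 at -1.50 and the highest Foxn1, a regulator of hair keratin genes, at -0.28. The summed level of the list, in units of each array's 75th percentile, was 113 in wild-type skin and 70.8 in knockout skin. Krt71, at -0.47 log2 and thus not among the 7, made up most of both sums. Pla2g2e is also known from adipocytes, and 2 of 4 measured adipocyte markers were at least 1.5-fold lower: Plin1, a lipid droplet coat protein (-1.13), and Adipoq, the hormone adiponectin (-0.64). Their list had a summed level of 68.0 and 59.3 and a median of -0.37. Fabp4, which made up most of both sums, stood at -0.09, and Lep was above background on the wild-type array only. The part of either marker list in the Pla2g2e difference was not tested.

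Group X is the other member at least 1.5-fold lower. Pla2g10 encodes an enzyme that is active on phosphatidylcholine and is known from gut, testis and the outer root sheath of the hair follicle. Its probe to NM_001291009, A_55_P2035772 at mm9 chr16:13715169-13715228 on the minus strand, ends on AATAAA, the hexamer that precedes the poly(A) tail of most messenger RNAs. Bases 31 to 60 of it are shown with that hexamer in capitals.

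A_55_P2035772: gatacatctaagaattgtaactgtAATAAA

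The Pla2g10 probe read 47.7 (scanner error 5.71) in wild-type skin and 24.3 (3.31) in knockout skin. Both are dim, and the lowest signals marked well above background were 13.5 and 9.84. The scaled difference was -0.88 log2 (error 0.26). Among the 2409 measured genes with a mean signal under 50, a limit chosen after the values were seen, 8.14% were 1.5-fold lower or more and 11.0% higher by that size. Under normexp background correction with an added offset of 50, which draws dim signals together, the difference was -0.17 log2. Pla2g10 then no longer passed 1.5-fold. That setting started from each spot's unsubtracted mean and its local background median, not from the processed intensity.

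**Figure D2:**
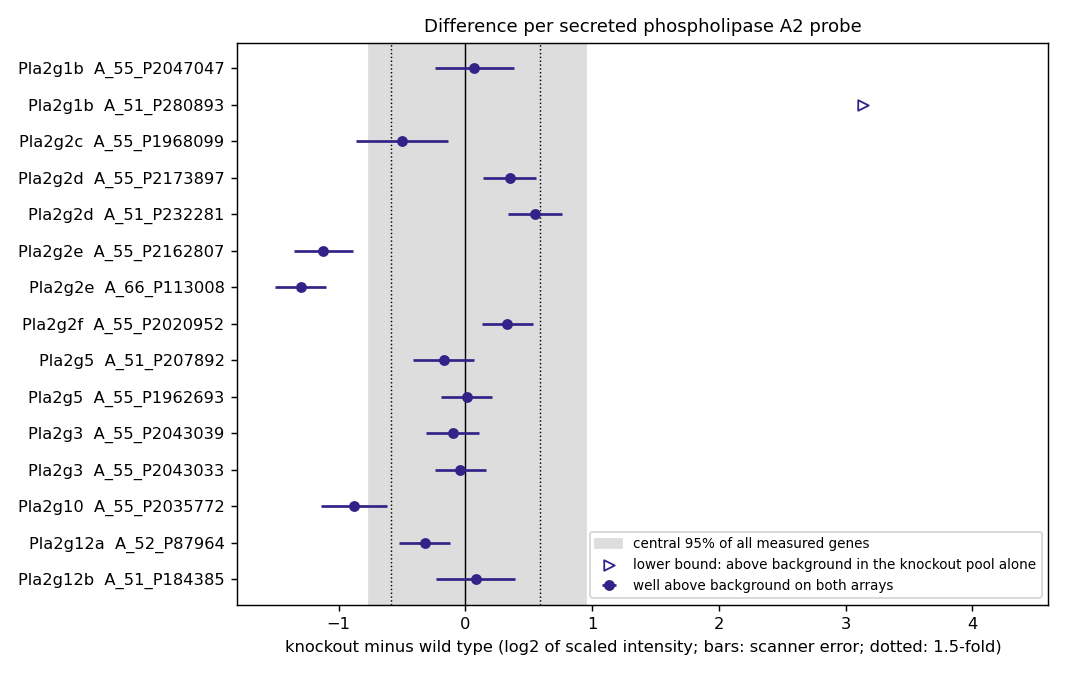
Scaled difference of each probe, knockout minus wild type in log2, with bars for the scanner error; the grey band holds the central 95% of all measured genes (-0.76 to 0.95) and the dotted lines mark 1.5-fold. Both Pla2g2e probes and the Pla2g10 probe lie to the left of the band, and the open triangle is the lower bound of a Pla2g1b probe.

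Windows of 250 bases before a transcript start were read from RefSeq's promoter sequences, build GRCm38.p6, and those of Pla2g2e and Pla2g10 are shown because both genes stood lower. The start used is not always the outer end of the gene in RefSeq's gene table. For Pla2g2e it is position 138877942, 31 bases inside the gene's range, so the last 31 bases of the window lie within the gene. For Pla2g10 it is position 13730484, 610 bases inside a gene that reaches to 13731094, so the whole window lies within the gene. The windows of all members were searched on both strands for TGACTCA, the AP-1 motif, for TATAAA, the TATA box, and for GGGCGG, the GC box; no matches overlapped. Of the members, 9 had at least 1 window, and 1, Pla2g3, had no entry. The Pla2g2e window, at chr4:138877692-138877941 on the plus strand, is shown with TGACTCA in capitals. The Pla2g10 window, at chr16:13730485-13730734 on the minus strand, is shown with GGGCGG, on either strand, in capitals.

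Pla2g2e window: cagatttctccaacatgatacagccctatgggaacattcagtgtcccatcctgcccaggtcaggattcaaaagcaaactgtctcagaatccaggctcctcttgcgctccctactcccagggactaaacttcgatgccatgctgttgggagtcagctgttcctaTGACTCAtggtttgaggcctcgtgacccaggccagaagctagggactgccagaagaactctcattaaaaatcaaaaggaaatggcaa

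Pla2g10 window: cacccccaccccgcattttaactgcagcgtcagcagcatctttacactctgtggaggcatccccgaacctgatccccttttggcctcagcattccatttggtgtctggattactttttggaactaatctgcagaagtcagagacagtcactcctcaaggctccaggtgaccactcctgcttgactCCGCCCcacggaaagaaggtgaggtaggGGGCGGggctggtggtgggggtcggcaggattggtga

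The Pla2g2e window held TGACTCA once, 87 bases before the start used, and it was the 1 window with a match among the members' 10. Over all 32851 windows, 4.46% held TGACTCA, 12.4% held TATAAA and 32.7% held GGGCGG. Pla2g10 had 2 matches to GGGCGG, 65 and 37 bases before the start used and thus within the gene's range, and Pla2g2d had a match 65 bases before its start, which is the outer end of that gene. No window of a member held TATAAA. The windows of Pla2g12a and Pla2g12b and the second of Pla2g5 also lay wholly within the gene's range. The other Pla2g5 window lay within it by 93 bases. An absence from such windows does not show an absence upstream of the gene. These windows of Pla2g2e and Pla2g10 thus had none of these motifs in common. A match is a string of letters and not a bound site.

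Group IB gave unequal answers at its probes. Pla2g1b encodes the digestive phospholipase A2 of the pancreas, which is secreted as a proenzyme. The probe to its messenger RNA NM_011107, A_51_P280893 at mm9 chr5:115924590-115924649, read 12.6 (scanner error 3.19) in wild-type skin, not well above background, and 112 (11.4) in knockout skin. The probe to the clone AK019009, A_55_P2047047 at mm9 chr5:115921797-115921853, read 22.6 (3.70) and 22.3 (3.08). The first is printed whole in lower case, and of the second bases 25 to 54, with AATAAA in capitals, to show that they are different stretches of RNA.

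A_51_P280893: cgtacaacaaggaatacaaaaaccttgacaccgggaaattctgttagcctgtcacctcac

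A_55_P2047047: aaagtagctttcAATAAAtatatgctaata

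At A_51_P280893 the bound was 8.81-fold higher in knockout skin. It sets the scaled processed intensity there against the lowest one marked well above background on the wild-type array. The bound leaves out scanner error. That lowest signal, 13.5 before scaling, is no strict limit, since Cd207 read 13.9 in wild-type skin and was not well above background. At A_55_P2047047 the difference was 0.07 log2 (error 0.31), and this probe represents the gene in the counts, since it alone was measured on both arrays. On the knockout array, over 63 pixels, the spot's unsubtracted mean was 159, its median 154 and its pixel SD 25.6, against a background of 36.3. On the wild-type array the same spot had a mean of 52.2, a median of 53 and a background of 38.5 over 67 pixels. The cause of the reading was not tested.

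On the knockout array only, 1151 probes of named genes were well above background; of these, 19.6% had a bound of at least 2-fold and 1.04% one of at least 8-fold, a size chosen after the value was seen. Pancreatic acinar markers had summed levels of 0.202 and 0.257. The brightest, Ctrb1, read 238 and 249, near the median spot of each array, and the other measured markers read lower. Of 5 measured, 2 were at least 1.5-fold higher, the carboxypeptidase Cpa1 (0.89) and the elastase Cela1 (0.80), and 0 were lower, with a median of 0.15 and Prss1, trypsinogen, lowest at -0.09. Pnlip, the pancreatic lipase, was not well above background in either pool. Their part in the Pla2g1b reading was not tested.

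Group IIF read brightly in both pools. Pla2g2f encodes the enzyme of the upper epidermis, and its single probe, A_55_P2020952 at mm9 chr4:138306448-138306507 on the minus strand, read 12579 (scanner error 1258) in wild-type skin and 14816 (1482) in knockout skin. The scaled difference was 0.33 log2 (error 0.20), a 1.25-fold higher level in knockout skin. This exceeds the scanner error of a difference but stays within the central 95% of all measured genes. That range takes in dim genes, whose differences spread wider, and was not taken over bright genes alone. Keratinocyte markers beside it had a median of 0.06 log2, from Krt5 at -0.05 to Trp63, the regulator of stratified epithelium, at 0.30, although its other probes ran from -0.66 to 0.20. Their summed levels were 492 and 510, and 0 of 6 were at least 1.5-fold apart.

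Group IID was somewhat higher in knockout skin at both of its probes. Pla2g2d encodes an enzyme of lymphoid dendritic cells and macrophages that is known to restrain immune responses. Its probes lie 886 bases apart in NM_011109. A_55_P2173897, at mm9 chr4:138336981-138337040, read 149 and 179, and A_51_P232281, at chr4:138337867-138337926, read 161 and 222. The differences were 0.35 log2 (error 0.21) and 0.55 log2 (error 0.21), both above 0 and both short of 1.5-fold. At 1.47-fold, Pla2g2d was the closest member to that size on the higher side.

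Dendritic cell and macrophage markers did not share 1 direction. Of 6 measured, 2 were at least 1.5-fold lower, H2-Ab1, an MHC class II chain (-0.95), and Cd74, its chaperone (-0.62), and 0 were higher. The highest was Mrc1, the macrophage mannose receptor, at 0.50, and the median was -0.02. Summed levels were 19.0 and 17.8, and Cd207, the defining marker of Langerhans cells, was not well above background in either pool. The part of these cells in the Pla2g2d readings was not tested.

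The remaining member of the group II cluster, Pla2g2c, and the enzymes of groups V and III had differences near their scanner error or below it. Pla2g2c, known from testis in the mouse, read 22.1 (scanner error 3.83) and 14.7 (2.70) at A_55_P1968099, mm9 chr4:138300426-138300485. Its difference was -0.50 log2 (error 0.36), or 1.41-fold lower. It lay past 1.5-fold with quantile normalization (-0.60) and without scaling (-0.59), and at 0.06 with normexp. Both readings are close to background.

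Pla2g5 encodes the group V enzyme of macrophages, heart and fat. Its probe to NM_001122954, A_55_P1962693 at mm9 chr4:138355185-138355244 on the minus strand, read 1629 and 1535, a difference of 0.01 log2 (error 0.20). Its probe to NM_011110, A_51_P207892, has no position in the files and read 55.2 and 46.0, a difference of -0.17 log2 (error 0.24). The 2 probes differ in sign, but each lies within its error of 0.

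Pla2g3 encodes a larger enzyme related to bee venom phospholipase A2 and is known from mast cells. Its probes to NM_172791, 982 bases apart, read 99.0 and 86.8 at A_55_P2043039 and 1914 and 1747 at A_55_P2043033, at mm9 chr11:3393127-3393186 and chr11:3394109-3394168. The differences were -0.10 log2 (error 0.21) and -0.04 log2 (error 0.20), each within its error. Mast cell markers stood higher over the same arrays: of 8 measured, 3 were higher by 1.5-fold or more and 0 lower, with a median of 0.42 and summed levels of 42.5 and 65.5. The 3 were Cpa3, a mast cell carboxypeptidase (0.65), Hdc, which makes histamine (1.22), and Fcer1a, the IgE receptor chain (3.80). Fcer1a rests on a single probe that was dim in wild-type skin, with readings of 46.3 and 606. Ms4a2 was lowest at 0.19, with readings of 54.6 and 58.6.

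Group XII enzymes differ in sequence from the rest of the family. Pla2g12a, which is widely expressed, read 1559 (scanner error 156) and 1171 (117) at A_52_P87964, mm9 chr3:129597769-129597828. Its difference of -0.32 log2 (error 0.20) left 80.0% of the wild-type level. Pla2g12b, a liver protein that has lost catalytic activity, read 26.1 (4.34) and 26.0 (3.61) at A_51_P184385, mm9 chr10:58884374-58884433. Its difference was 0.08 log2 (error 0.31), which is less than the scanner error.

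**Figure D3:**
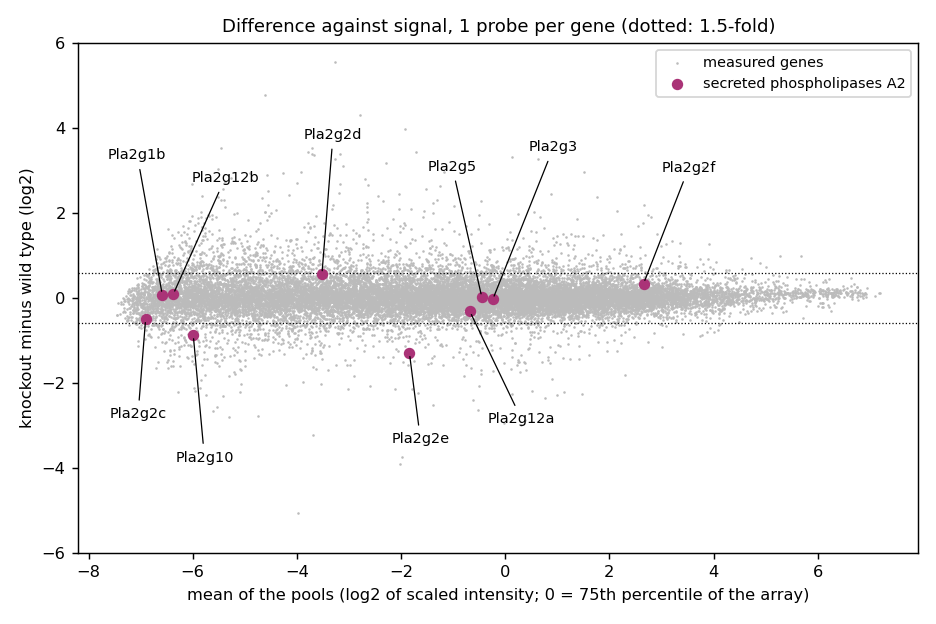
Difference against mean signal for each measured gene, by its brightest probe measured on both arrays; both axes are in log2 of scaled intensity and the dotted lines mark 1.5-fold. Pla2g2e is lowest among the secreted phospholipases A2 at -1.30, and Pla2g10, Pla2g2c, Pla2g12b and Pla2g1b sit at the dim end, where the cloud of genes is wider.

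An order of the 10 genes by level is not given, since probes of 1 gene could differ many-fold in signal. In wild-type skin the Pla2g2e probe nearer the 3′ end read 11.7 times the other, and in knockout skin 10.3 times. For Pla2g3 the same ratios were 19.3 and 20.1. For Pla2g2d they were 1.08 and 1.24. The Pla2g5 probes, to different accessions, stood 29.5 and 33.3 apart. The differences between pools at such pairs were close all the same, with gaps of -0.18 log2 for Pla2g2e, 0.06 for Pla2g3, 0.20 for Pla2g2d and 0.18 for Pla2g5. The gap at Pla2g1b was 3.17, with 1 of its probes not measured in wild-type skin.

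The probes of the members were also compared by sequence. The GC content of the 15 probes ran from 35.0% to 55.0%. The longest run of bases that a member's probe had in common with a probe of any other gene was 12 to 15 bases of its 60. Only exact runs on the same strand were sought, so likeness between probes with scattered mismatches was not examined. The hexamer AATAAA, on the probe's own strand, stood in 5 of the 15 probes, those of Pla2g10, Pla2g2f, Pla2g1b (A_55_P2047047), Pla2g2d (A_55_P2173897) and Pla2g5 (A_55_P1962693). Of all 39422 probes, 12.6% held it.

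On chromosome 4, 5 members sit side by side, and they did not differ in 1 direction. From the Pla2g2c probe to the second Pla2g2e probe the cluster spans 138 kb of mm9. Along it the order is Pla2g2c (-0.50), Pla2g2f (0.33), Pla2g2d (0.55), Pla2g5 (0.01), Pla2g2a and Pla2g2e (-1.30). Pla2g2a, a further family gene that is disrupted in C57BL/6 mice and that RefSeq lists as a transcribed pseudogene, read 4.16 and 3.08, not well above background in either pool. Within 200 kb on each side there were 4 measured genes outside the family, from 4930563F15Rik at -0.25 to Tmco4 at 0.13, and 0 of them were 1.5-fold apart. Among the genes measured in this window, Pla2g2e alone lay past that size.

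**Figure D4:**
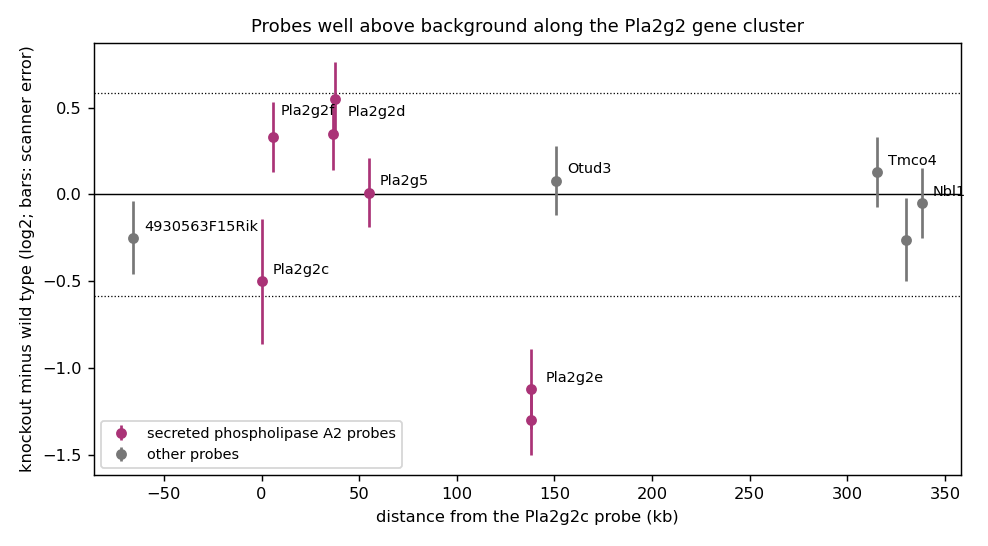
Scaled difference in log2, with scanner error bars, of each probe well above background on both arrays along the Pla2g2 cluster, by distance in kb from the Pla2g2c probe. The Pla2g2e probes, 138 kb away, lie at -1.12 and -1.30, while the neighbouring Otud3 lies near 0.

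Partners of the family were read from lists of related genes. Pla2r1, the receptor that binds several secreted phospholipases A2 and clears them, read 119 (scanner error 12.3) in wild-type skin and 212 (21.3) in knockout skin. Its difference was 0.92 log2 (error 0.21), or 1.90-fold higher. Oc90, a relative without catalytic activity that belongs to the otoconia of the inner ear, read 11.9 and 10.6 and was not well above background in either pool. The members lay on both sides of 0, 5 above and 5 below, so the receptor had no single direction in common with them.

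Enzymes and receptors of lysophospholipids, the products of the family, mostly lay within 1.5-fold. Of 18 measured enzymes, 1 was higher by 1.5-fold or more and 0 lower, with a median of -0.02 log2. The 1 was Pla1a, a secreted phospholipase A1 that makes lysophosphatidylserine, which read 44.5 and 189 (2.18 log2, error 0.23, or 4.54-fold higher). The lowest was the acyltransferase Lpcat1 at -0.28, and Enpp2, which makes lysophosphatidic acid, stood at -0.12. Of 11 measured receptors, 1 was lower by 1.5-fold or more and 0 higher, with a median of -0.23. The 1 was Gpr174, a lysophosphatidylserine receptor on the X chromosome, at -0.93 (error 0.32) from dim readings of 30.3 and 14.9, and Lpar4 was highest at 0.21. Of 8 measured oxygenases and partners that use the freed fatty acids, 0 were 1.5-fold apart, from Ptgs2, cyclooxygenase 2, at -0.34 to Alox5ap, the partner of 5-lipoxygenase, at 0.48, with a median of 0.06. The shares of all measured genes past 1.5-fold, given above, apply here and to every marker list too.

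Neutrophil markers were higher beside these genes. Of 5 measured, 3 were higher by 1.5-fold or more and 0 lower, against 6.74% and 4.50% of all genes, with a median of 1.65 log2. The 3 were the collagenase Mmp8 (2.56), the chemokine receptor Cxcr2 (1.92) and Retnlg (1.65). Their wild-type readings were dim, at 21.6, 22.4 and 86.5. Elane, neutrophil elastase, was lowest at 0.05 with readings of 785 and 762, and made up most of the summed levels of 0.429 and 0.608. The part of these markers in any difference of the family was not tested.

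**Figure D5:**
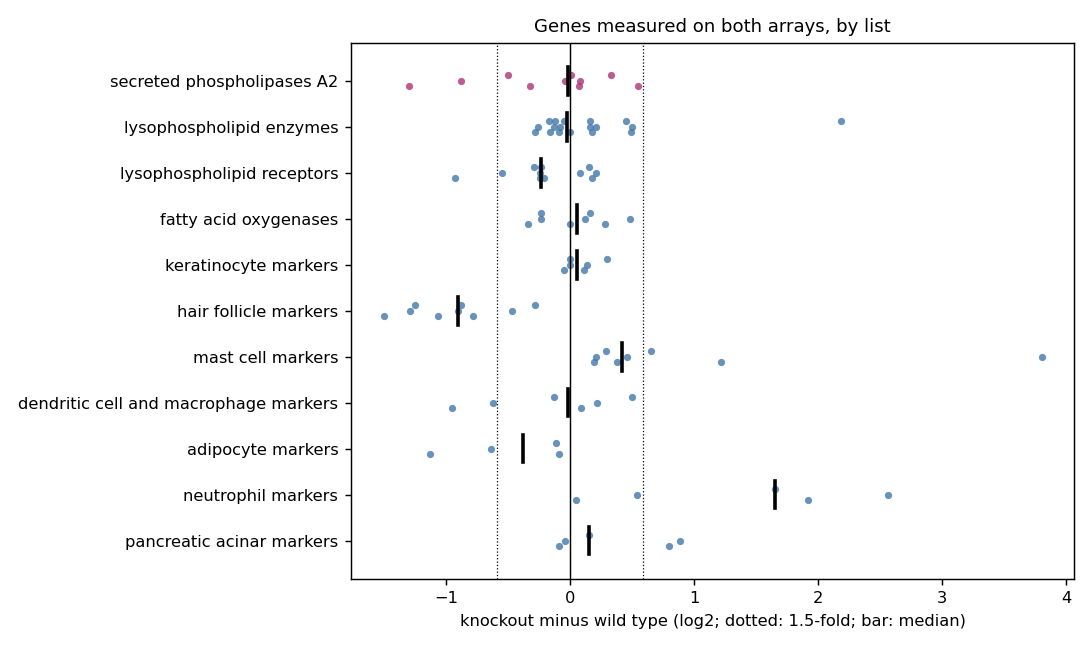
Differences in log2, knockout minus wild type, of every gene measured on both arrays in each list; bars are medians and dotted lines mark 1.5-fold. Hair follicle markers lie below 0 (median -0.90), mast cell markers above it (median 0.42), and the secreted phospholipases A2 on both sides (median -0.02).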

How the data were processed

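Per the file headers, each array's deposited scanner output lists an intensity for every spot, with background and spatial trends already removed by Agilent Feature Extraction (version 11.5.1.1, per the submitters' processing notes). The deposited value table holds a ratio, the processed intensity over a constant of each array (2406 and 2273), found by setting it against all 44397 spots; its medians were 0.0946 and 0.0969. Per array, 43020 spots lay outside the controls. Outlier spots (234) were left out, which removed 7 probes; 0 were saturated. Values were log2 of intensity, averaged per probe, minus the array's 75th percentile (2233 and 2096 before log2). A gene was its brightest probe well above background on both arrays. Of 39422 probes, 28326 were named by accession, 2204 by symbol and 174 by synonym in RefSeq's GRCm38.p6 table, 1767 kept the file's name and 6951 had none. Code was tested on simulated data. Alternatives used limma 3.58.1 for normexp (offset 50), R 4.3.3 and Python 3.11.15. Differences had a median scanner error of 0.20 log2, or 0.28 for genes with a signal under 50. Over 341 probes printed 10 times, the spots' difference had a median SD of 0.039 log2, and of 0.31 for the 29 dim ones. The members and lists were chosen with earlier results of these data known. Named were all members, Pla2g4e, Pla2g2a, Oc90 and Pla2r1. From each list, the genes past 1.5-fold were named, or else the highest and lowest. The extremes of lists with such genes, markers not above background, Enpp2, Fabp4, Krt71 and Ctrb1 were added after their values were seen. So were the genes of the chromosome 4 window, Ddx3y and Xist. Genes of like pattern were not sought, since a pair of arrays gives no pattern.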

Additional observations from a re-analysis of the deposited data

Results flagged for a closer look

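The Pla2g1b probe A_51_P280893 was singled out because it gave a signal in knockout skin that the counts of members leave out: it did not clear background on the wild-type array, so another probe stands for the gene. The bound, which leaves out scanner error, was 8.81-fold higher in knockout skin, with readings of 12.6 and 112. The other Pla2g1b probe read 22.6 and 22.3.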

How the results depend on the processing

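Of 84 values of single members under the alternatives, 81 stayed within the member's scanner error of the main value, 3 moved by more, and neither Pla2g2e nor Pla2g10 changed sign. The 3 were Pla2g10 (-0.17 log2) and Pla2g2c (0.06) with normexp and Pla2g1b (3.24) without the filter on dim probes. The other percentile and median scalings, no scaling and the deposited value table each shift every gene by the same constant. Averaging probes, dropping the filter or keeping brighter genes cannot move a member with a single probe. Many of the 84 values were therefore near the main value by construction and say little about robustness. Pla2g2e ran from -1.39 to -1.16 in the 8 alternatives that kept it. The count of members at least 1.5-fold lower was 2; it was 1 with normexp, 1 at 2-fold, and 0 among genes brighter than the median, where 4 members remained and Pla2g2e was not among them. It was 3, within 1.5 times, with quantile normalization and without scaling, which added Pla2g2c. Over all 19397 genes these settings gave 980 and 1187 lower, beside 872 in the main values, and 1186 and 1001 higher, beside 1308. The count of members at least 1.5-fold higher was 0, and 1 without the filter, by Pla2g1b. Pla2g1b, Pla2g5, Pla2g12b and Pla2g2c, none of them counted as past 1.5-fold in the values reported, took both signs among the settings. Over all genes, 60.0% of those past 1.5-fold were higher, and 45.7% without scaling, which moved the median of all genes from 0.01 to -0.08. Genes lower numbered 872 of 19397, and 422 with normexp. They were 1343 of 24288 without the filter and 236 of 9698 among the brighter genes. Genes higher numbered 1308, 855, 2227 and 399 in the same order. No paired analysis was possible because each genotype has 1 array, and for the same reason no array could be left out. Dim readings limit Pla2g1b, Pla2g2c, Pla2g10 and Pla2g12b, whose signals lay under 50 at the probe that represents each gene.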
